A study of Homo sapiens with 54 samples.

Results

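Palbociclib in SW620 cells was described from 6 libraries, 3 of treated cells and 3 of controls, out of 54 libraries in the whole series. They were chosen by their labels alone, as the SW620 palbociclib and SW620 control libraries of the second set. That set holds 42 libraries in 14 groups, and no label states its sequencing runs, dates or batches. Values are given across genes. SW620 is an established human colorectal cancer line, grown from a lymph node metastasis of a colon adenocarcinoma. Palbociclib selectively blocks CDK4 and CDK6, kinases that drive cells through G1. The groups used here were SW620 with palbociclib, SW48 (another colorectal line) with palbociclib, SW620 with trametinib (which inhibits MEK1 and MEK2), and the SW620 and SW48 controls, with 3 libraries each. All were grown in DMEM with 10% serum, per the labels' protocols. Not given in the sources used here are the dose, the exposure time and what the control cells received. No source says whether the 3 libraries of a group are separate cultures. The p-values therefore reflect only the spread among these samples, which may be technical. RNA was read by QuantSeq, which sequences the 3′ end of each polyadenylated transcript, so that 1 fragment stands for 1 transcript and counts are not corrected for gene length.

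D-type cyclins activate CDK4 and CDK6, which phosphorylate the retinoblastoma protein RB and its relatives. Unphosphorylated RB holds back the E2F transcription factors, which turn on genes for DNA synthesis, and the related p107 and p130 proteins act in a complex that holds back genes of mitosis. Inhibition of CDK4 and CDK6 in cells that have RB is known for arrest in G1, and it is also known to leave cells large and metabolically active, often with more lysosomes.

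The palbociclib libraries held 12128502 to 12266477 counts and the controls 10012099 to 12806042, and libraries of a group differed by more than counting noise, so none was a copy of another. The colorectal epithelial marker EPCAM stood at 565 to 632 CPM (a gene's count scaled to the same total in every library) with palbociclib and at 601 to 647 CPM in controls. Of 8 epithelial markers LGALS4 was at or near 0 in all 6 libraries, and the summed level of the 8 was 7626 to 8034 CPM with palbociclib and 4256 to 4835 CPM in controls. The summed level of 11 immune, fibroblast and endothelial markers was 13.2 to 141 CPM with palbociclib and 10.6 to 15.1 CPM in controls, with PTPRC, CD3E, DCN and CDH5 at or near 0. The top of that range was palbociclib library 1, which alone held CCDC80 at 224 CPM and COL1A1 at 117 CPM. Of the 7 tested epithelial markers 5 rose and 1 fell. Of 4 tested immune and stromal markers 1 rose (LYZ, at under 6 CPM). That number was 2 without palbociclib 2 or palbociclib 3. It was 3 with no count filter, and also 3 when all 14 groups entered 1 fit. Of 3 tested markers of the breast and stomach lines of the series 1 rose (ERBB2). Genes that exceed 100 CPM in SW48 controls and stay under 1 CPM in SW620 controls summed to 0.283% to 1.19% of their SW48 level with palbociclib and, by their choice low, to 0.131% to 0.186% in SW620 controls. Genes chosen the same way for the breast line BT-20 summed to 3.82% of their BT-20 level in palbociclib 3 and to 0.300% and 0.632% in the other treated libraries, against 0.170% to 0.194% in controls. For the stomach line NCI-N87 these sums were 0.343% to 0.494% with palbociclib and 0.107% to 0.165% in controls. Medians over the genes of a set read differently from these sums. The BT-20 median was 0.331%, 0.0939% and 0.126% in palbociclib 1, 2 and 3, against 0.0797% to 0.227% in controls. The 3.82% therefore does not describe most of those genes. For SW48 the median was 0.583% in palbociclib 1 and 0.044% and 0.104% in the others, against 0.066% to 0.259% in controls. For NCI-N87 it was 0.118% to 0.169% with palbociclib and 0.0178% to 0.0859% in controls. Control library 3 stood further from the other controls than they did from each other. The 2 mitochondrial ribosomal RNA genes took 2.86% to 3.22% of counts with palbociclib and 1.60%, 1.36% and 3.51% in controls 1, 2 and 3. The part of these differences in the results below was not tested. In bulk RNA fewer cells of a state and less RNA per cell cannot be told apart.

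The sequences that go with the lists described below are promoter stretches around letter matches for 4 motifs. They are RefSeq windows of GRCh38.p14 (250 bases before to 50 after a gene's start), read 5′ to 3′ along the gene. The start used for a window can lie inside the gene's full span, as for ASNS. E2F factors bind TTTCCCGC, TTTGGCGC, TTTCGCGC or TTTGCCGC, the complex that represses mitotic genes uses TTTGAA (the CHR element), the lysosomal regulators TFEB and TFE3 bind TCACGTGA (the CLEAR element), and ATF4 with a C/EBP partner binds TGATGNAA. Both strands were searched, capitals mark the matches, and matches on opposite strands can overlap. The E2F examples are RBL1, which fell most among CDK4/6 and RB genes with a match, E2F1, which did not pass the test although it has a pair of matches, and the sliding clamp PCNA.
RBL1, chr20:37095986-37096043, minus strand: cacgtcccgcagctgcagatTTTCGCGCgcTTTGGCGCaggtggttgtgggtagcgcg
E2F1, chr20:33686378-33686438, minus strand: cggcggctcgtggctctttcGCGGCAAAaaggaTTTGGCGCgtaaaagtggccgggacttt
PCNA, chr20:5126654-5126701, minus strand: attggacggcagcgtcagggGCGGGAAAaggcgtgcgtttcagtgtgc
The CHR examples are a kinetochore gene, a spindle gene and the mitotic kinase CDK1.
NUF2, chr1:163321950-163321995, plus strand: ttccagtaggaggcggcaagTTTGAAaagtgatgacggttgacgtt
HMMR, chr5:163460584-163460635, plus strand: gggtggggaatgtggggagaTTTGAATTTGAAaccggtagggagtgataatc
CDK1, chr10:60778150-60778195, plus strand: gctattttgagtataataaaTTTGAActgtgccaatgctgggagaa
The ATF4 examples are the asparagine synthetase and a glutathione-degrading enzyme.
ASNS, chr7:97872449-97872496, minus strand: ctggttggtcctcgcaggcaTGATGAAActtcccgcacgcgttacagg
CHAC1, chr15:40953242-40953289, plus strand: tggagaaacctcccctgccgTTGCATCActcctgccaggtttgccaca
The CLEAR examples are a lysosomal calcium channel and a lysosomal membrane protein, each with a pair of matches.
MCOLN1, chr19:7522562-7522636, plus strand: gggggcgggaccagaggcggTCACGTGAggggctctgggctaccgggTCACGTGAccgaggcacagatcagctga
LAMP1, chr13:113297190-113297264, plus strand: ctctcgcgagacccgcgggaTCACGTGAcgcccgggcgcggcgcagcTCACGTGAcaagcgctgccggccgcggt
An E2F match lay in 24 of the 48 DNA replication genes with a window (50%), against 3.33% of all 27305 windows and 5.43% of those of tested genes. A CHR match lay in 35 of 49 G2/M genes (71.4%), against 15.4% of all windows and 9.4% of those of tested genes. A CLEAR match lay in 6 of 32 lysosome and autophagy genes (18.8%), against 1.04% of all windows and 2.01% of those of tested genes. A TGATGNAA match lay in 5 of 25 ATF4 genes (20%), against 3.67% of all windows and 1.57% of those of tested genes. An E2F match lay in 8.48% of the genes that fell with palbociclib and in 3.03% of those that rose, and a CHR match in 12.8% of those that fell and in 7.89% of those that rose. A TGATGNAA match lay in 2.52% of those that fell and in 1.07% of those that rose. For CLEAR the shares were close, 2.17% of those that fell and 1.96% of those that rose. A match of letters is a description and does not show that a factor binds there.

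Palbociclib moved a large share of the transcriptome of SW620. Of 13068 genes tested, 2303 rose (17.6%) and 2273 fell (17.4%) at an adjusted p under 0.05 (edgeR quasi-likelihood test, Benjamini-Hochberg adjustment over all genes tested), so that 35.0% were called. Fewer moved far: 534 were at least 2-fold higher (4.09%) and 301 at least 2-fold lower (2.30%). The median log2 fold change over all genes tested was 0.00. The 3 palbociclib libraries lay above all controls for 3189 genes (24.4%) and below them for 3143 (24.1%). 

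Among called genes averaging at least 4 on the log2 CPM scale with no overlap between the groups, the 12 highest had log2 fold changes from 1.80 to 3.02; CCND2, the one not named in this paragraph, is given with the cyclins below. ARHGDIB, a regulator of small GTPases known from blood cells, had 29.6, 21.3 and 34.4 CPM with palbociclib, against 2.95, 3.27 and 4.18 CPM in controls (log2 fold change 3.02, SE 0.21, adjusted p = 4.61e-06). MUC1, a membrane mucin, had 60.3, 59.2 and 67.8 CPM with palbociclib, against 9.62, 7.98 and 12.3 CPM in controls, 6.2-fold higher. NGFR, the low-affinity neurotrophin receptor, had 56.6, 55.8 and 55.6 CPM with palbociclib, against 10.3, 7.98 and 10.8 CPM in controls (log2 fold change 2.52, SE 0.12). In these 3 genes the lowest treated library was over 4 times the highest control. FOLR1, a folate receptor, had 336, 324 and 330.0 CPM with palbociclib, against 65.3, 59.8 and 62.4 CPM in controls, a rise of 2.40 on the log2 scale with the smallest error of the 12 (SE 0.08). ITGB7, an integrin subunit, rose by 2.48, SERPINA1, the antitrypsin, by 2.15, and CD82, a tetraspanin, by 2.06. RARRES2, the chemoattractant chemerin, rose by 2.05, S100A3, a calcium-binding protein, by 1.96, B3GNT3, a glycosyltransferase, by 1.94, and COL6A1, a collagen chain, by 1.80. COL6A1 was highest in palbociclib 1, at 174, 121 and 120.4 CPM with palbociclib, against 47.3, 34.6 and 37.6 CPM in controls, and the groups did not overlap.

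The lowest gene within the same limits was INHBE (chr12:57455307-57458025), which encodes the activin E subunit. It had 9.35, 6.93 and 9.47 CPM with palbociclib, against 81.3, 93.1 and 80.5 CPM in controls, 9.89-fold lower (log2 fold change −3.31, SE 0.13, adjusted p = 1.54e-07). ASNS (chr7:97851677-97928441), the asparagine synthetase, had 33.5, 39.2 and 36.9 CPM with palbociclib, against 300.4, 329 and 257 CPM in controls (log2 fold change −3.01, SE 0.11, adjusted p = 7.92e-08). In both genes every treated library was far under every control. TRIB3, a pseudokinase induced by ATF4, had 52.3, 49.0 and 50.4 CPM with palbociclib, against 265, 285 and 259.8 CPM in controls, and PHGDH, the first enzyme of serine synthesis, had 28.9, 25.1 and 31.4 CPM with palbociclib, against 163, 153 and 143 CPM in controls. DDIT4, which restrains the kinase complex mTORC1, fell by 2.38 on the log2 scale, ADM2, a peptide hormone, by 2.42, CHAC1 by 2.04 and STC2, a stanniocalcin, by 2.01. The other named genes were G0S2, an inhibitor of fat breakdown (−2.46), RBM3, a cold-induced RNA-binding protein (−2.25), the long noncoding RNA CRNDE (−2.05) and PRIM1, the catalytic subunit of DNA primase (−2.03).

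**Figure D1:**
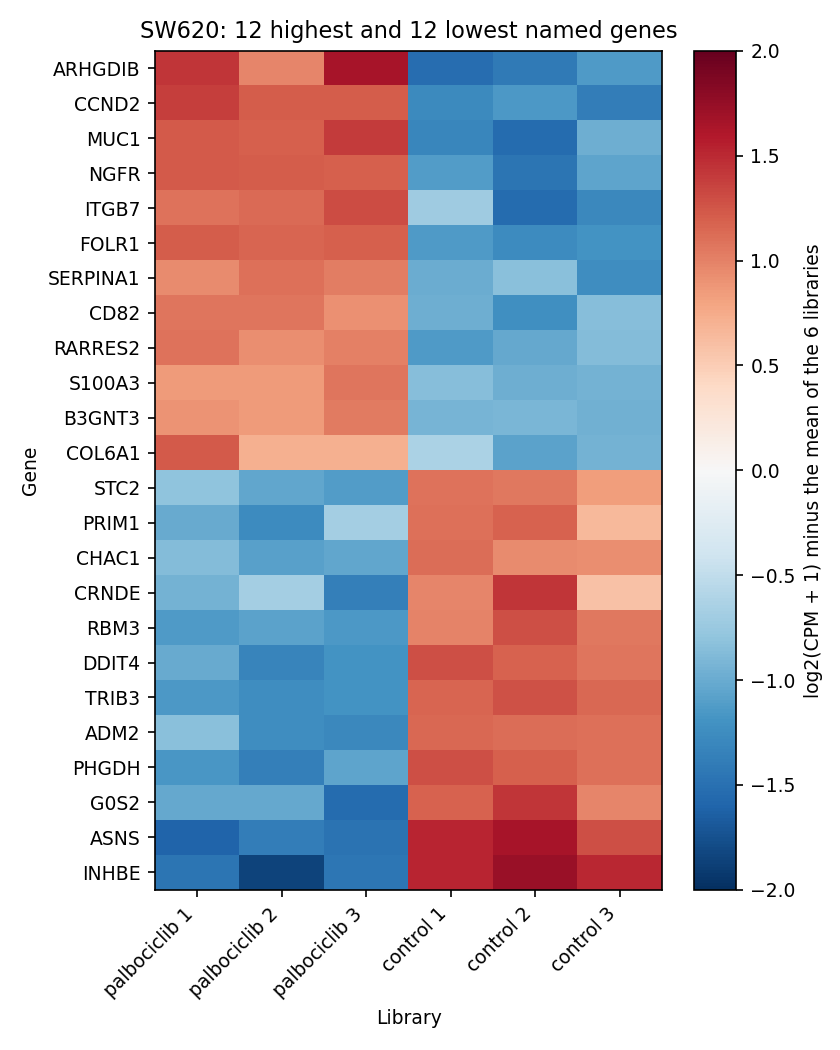
Log2(CPM + 1) minus the mean of the 6 libraries (colour scale) for the 12 highest and 12 lowest named genes (rows) in the 3 palbociclib and 3 control libraries (columns). The 3 treated columns share 1 colour and the 3 control columns the other in every row, and the extremes are ARHGDIB at a log2 fold change of 3.02 and INHBE at −3.31.

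Of 29 tested genes of the CDK4/6 and RB pathway 8 rose and 7 fell, with a median log2 fold change of 0.03, close to that of all genes, against 17.6% of all genes called higher and 17.4% called lower. The partners of the kinases moved while the kinases did not pass the test. CCND1 (chr11:69641156-69654474), which encodes cyclin D1, had 811, 806 and 822 CPM with palbociclib, against 279, 264 and 275 CPM in controls, 2.98-fold higher (log2 fold change 1.57, SE 0.07, adjusted p = 3.64e-07). CCND2 (chr12:4273762-4305353), cyclin D2, had 60.4, 53.5 and 53.9 CPM with palbociclib, against 8.76, 9.62 and 8.05 CPM in controls, 6.36-fold higher (log2 fold change 2.67, SE 0.12, adjusted p = 1.95e-07). CCND3, cyclin D3, had 66.7, 73.0 and 71.7 CPM with palbociclib, against 34.0, 34.6 and 41.7 CPM in controls (log2 fold change 0.94, SE 0.10, adjusted p = 7.67e-05). All 3 D-type cyclins therefore stood above every control in every treated library. CDK4 had 293, 286 and 316 CPM with palbociclib, against 286, 244 and 275 CPM in controls (log2 fold change 0.15, SE 0.08, adjusted p = 0.188), and CDK6 had 484, 485 and 517 CPM with palbociclib, against 440.1, 527 and 508 CPM in controls (adjusted p = 0.941). Both overlapped between the groups, and the fitted sign of CDK6 turned in 3 of the alternatives.

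Among the pocket proteins, RBL1 (chr20:36996349-37095997), which encodes p107, had 8.45, 9.43 and 14.2 CPM with palbociclib, against 31.1, 30.9 and 28.7 CPM in controls, 2.82-fold lower (log2 fold change −1.50, SE 0.17, adjusted p = 0.000102). RB1, the retinoblastoma gene, had 28.6, 35.0 and 47.0 CPM with palbociclib, against 36.4, 32.7 and 32.7 CPM in controls (log2 fold change 0.12, SE 0.16, adjusted p = 0.594), and RBL2, which encodes p130, had a log2 fold change of 0.16 (adjusted p = 0.31). RB1 and RBL2 overlapped between the groups, and RB1 was highest in palbociclib 3. E2F2, an activating E2F, had 5.00, 3.22 and 4.98 CPM with palbociclib, against 9.91, 9.21 and 9.31 CPM in controls (log2 fold change −1.10, SE 0.21, adjusted p = 0.00195), and E2F4, a repressive E2F, fell by 0.67 on the log2 scale (adjusted p = 0.000945). E2F7, an atypical repressor, fell by 0.65 (adjusted p = 0.0212) and E2F3 rose by 0.31 (adjusted p = 0.0209), and the first call was lost in 4 of the left-out libraries and the second without palbociclib 3 or control 3. E2F1, itself an E2F target, had 37.7, 34.2 and 30.5 CPM with palbociclib, against 36.2, 31.4 and 47.6 CPM in controls (log2 fold change −0.17, SE 0.15, adjusted p = 0.398), and E2F5, E2F6, E2F8 and TFDP1 did not pass the test, although E2F6 passed with all groups in 1 fit or without control 3 and E2F8 without palbociclib 2. TFDP2, a dimer partner of the E2Fs, rose by 0.26 (adjusted p = 0.0287), a call lost in 5 of the 6 left-out libraries.

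Downstream of RB, CCNE1, which encodes cyclin E1, the activator of CDK2, had 16.2, 18.2 and 17.1 CPM with palbociclib, against 5.24, 6.65 and 8.05 CPM in controls (log2 fold change 1.36, SE 0.17, adjusted p = 0.000162). CCNE2 (0.04, adjusted p = 0.895) and CDK2 (0.03, adjusted p = 0.816) did not pass. CDC25A, a phosphatase that activates CDK2, had a log2 fold change of −0.26 (adjusted p = 0.0529), just outside the threshold although its libraries did not overlap, and it passed without palbociclib 1 (−0.33, adjusted p = 0.0366). Of the inhibitors, CDKN1B (p27) had 14.3, 14.5 and 13.4 CPM with palbociclib, against 26.3, 23.1 and 26.3 CPM in controls (log2 fold change −0.84, adjusted p = 0.000279) and CDKN1C (p57) had 13.4, 14.5 and 10.6 CPM with palbociclib, against 33.7, 31.7 and 30.4 CPM in controls (−1.31, adjusted p = 4.53e-05). Both were lower in every treated library. CDKN2B (p15) rose by 0.54, a call lost when all 14 groups of the set entered 1 fit (adjusted p = 0.216). CDKN2C (p18) fell by 0.54, a call lost with DESeq2, with all groups in 1 fit and in 4 of the left-out libraries. CDKN2A (p16) had 371, 371 and 347 CPM with palbociclib, against 353, 325 and 391 CPM in controls, with groups that overlapped, and CDKN2D (p19) did not pass.

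CDKN1A (chr6:36676463-36687332), which encodes the inhibitor p21, had 28.7, 2.10 and 5.14 CPM with palbociclib, against 0.762, 0.921 and 0.237 CPM in controls. All treated libraries were above all controls, but palbociclib 1 was over 5 times the next library and the controls were under 1 CPM. Palbociclib 1 is also the library with the high CCDC80 and COL1A1 levels. The fitted log2 fold change was 4.26 (SE 0.97, adjusted p = 0.00602) and 2.52 without palbociclib 1 (adjusted p = 0.0125), and with a robust estimate of the dispersion the call was lost (adjusted p = 0.0929).

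**Figure D2:**
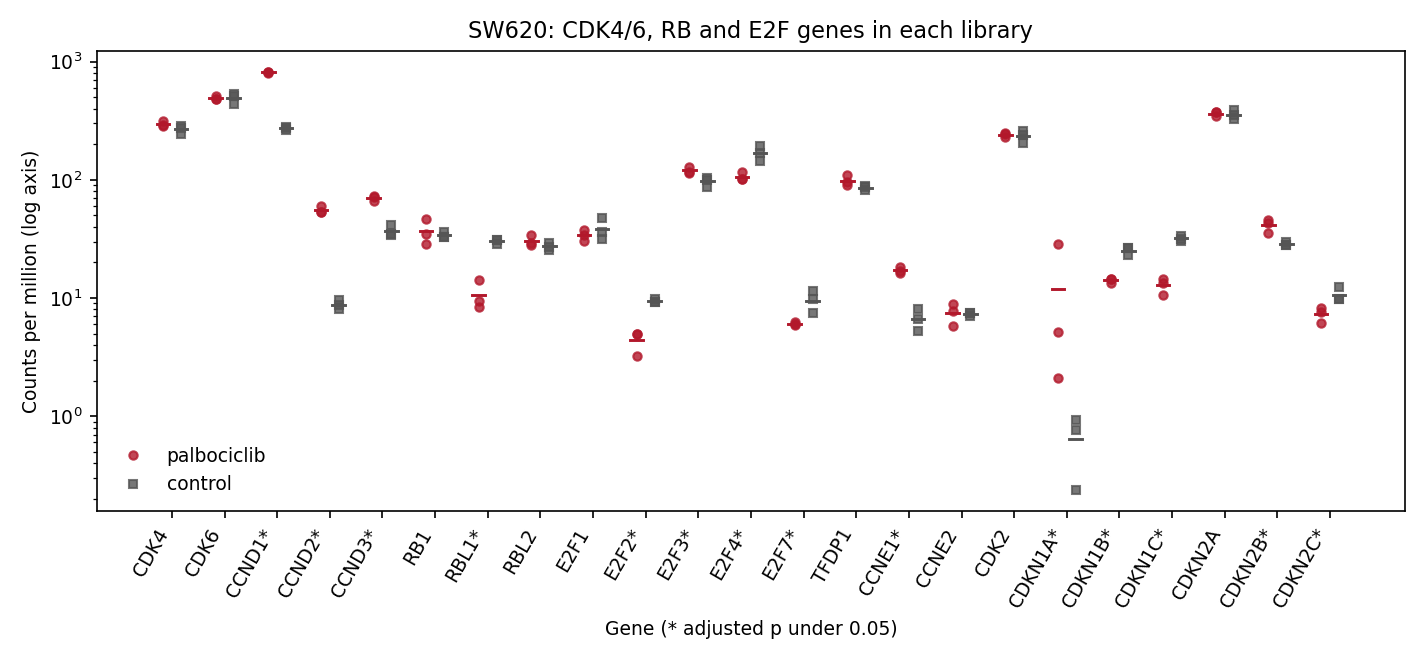
CPM on a log axis for 23 genes of the CDK4/6, RB and E2F list in each library, palbociclib as red circles and control as grey squares, with a line at each group's mean and a star for an adjusted p under 0.05. CCND1, CCND2, CCND3 and CCNE1 lie above their controls, RBL1, E2F2, E2F4, CDKN1B and CDKN1C below, and the palbociclib libraries of CDKN1A spread from 2.10 to 28.7 CPM.

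Most tested genes of DNA replication and of mitosis were lower. Of 59 tested genes of DNA replication and its precursors 45 fell and 1 rose, with a median of −0.49, and of 56 tested genes of G2 and mitosis 48 fell, with a median of −0.62, against 17.4% of all genes called lower. With a library left out 38 to 45 replication genes and 44 to 47 mitotic genes fell. The size of most changes was modest, since 6 replication genes and 5 mitotic genes were at least 2-fold lower.

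PRIM1 had 15.1, 12.5 and 19.3 CPM with palbociclib, against 68.8, 72.5 and 49.8 CPM in controls (log2 fold change −2.03, SE 0.18, adjusted p = 2.01e-05). DUT, which removes dUTP, had 172, 171 and 194 CPM with palbociclib, against 414, 473 and 322 CPM in controls (log2 fold change −1.17, SE 0.13). In both genes the controls also varied, with control 3 lowest, and the groups did not overlap. GMNN, the licensing inhibitor geminin, fell by 1.07 on the log2 scale. PCNA fell by 0.64 (adjusted p = 0.000455), MCM3 by 0.45 and MCM7 by 0.45, both subunits of the replicative helicase. MCM2 (−0.16, adjusted p = 0.187), MCM6 (−0.24, adjusted p = 0.06) and CDC6, a licensing factor (−0.10, adjusted p = 0.378), did not pass, and all 3 have an E2F match in their window. MCM5, another helicase subunit, was the member that rose (0.50, adjusted p = 0.00314).

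NUF2, a kinetochore protein, had 25.3, 28.9 and 26.0 CPM with palbociclib, against 63.0, 62.9 and 66.2 CPM in controls (log2 fold change −1.26, SE 0.09, adjusted p = 6.34e-06), and its partners SPC25 and NDC80 fell by 1.08 and 1.05 on the log2 scale. HMMR, a spindle protein, had 30.7, 32.5 and 38.6 CPM with palbociclib, against 65.7, 84.2 and 63.4 CPM in controls, and AURKB, the Aurora B kinase, had 124, 102 and 134 CPM with palbociclib, against 256, 259.6 and 220.0 CPM in controls. The groups did not overlap in any of these genes. MKI67, the proliferation marker Ki-67, had 122, 145 and 156 CPM with palbociclib, against 209, 223 and 237 CPM in controls, 1.58-fold lower (log2 fold change −0.66, SE 0.10, adjusted p = 0.000581). CDK1, the mitotic kinase, fell by 0.95. The 8 members that did not pass were CDC20, CDC25B, CDC25C, MAD2L1, INCENP, CKS2, RACGAP1 and TACC3, with log2 fold changes from −0.29 (MAD2L1) to 0.11 (INCENP).

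The ATF4 and amino acid list had the lowest median of the lists. ATF4 is a transcription factor whose translation rises under amino acid or endoplasmic reticulum stress. Of 34 tested members 31 fell and 1 rose, with a median of −1.40, against 17.4% of all genes called lower. ATF4 itself had 375, 315 and 321 CPM with palbociclib, against 844, 983 and 890.1 CPM in controls (log2 fold change −1.43, SE 0.10, adjusted p = 3.96e-06), and its family members ATF3 and DDIT3 (CHOP) fell by 2.37 and 1.65 on the log2 scale. Next to ASNS and PHGDH, the serine and one-carbon enzymes PSAT1 (−1.11), PSPH (−1.07), SHMT2 (−1.25) and MTHFD2 (−1.25) were lower. The amino acid transporters SLC7A11 (−1.17), SLC7A1 (−1.31), SLC7A5 (−0.64) and SLC38A2 (−0.37) were also lower, by smaller amounts in SLC7A5 and SLC38A2. VLDLR, a lipoprotein receptor, stood at 0.164, 0.161 and 1.14 CPM with palbociclib, against 2.19, 3.07 and 3.08 CPM in controls. Its log2 fold change of −2.48 rests on few counts (SE 0.61). ALDH18A1, which makes proline precursors, was the member that rose (0.37), and ATF5 (0.20, adjusted p = 0.217) and CTH (−0.90, adjusted p = 0.056) did not pass.

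Most lysosomal genes tested were higher. Of 44 tested genes of the lysosome and autophagy 26 rose and 2 fell, with a median of 0.50, against 17.6% of all genes called higher. With a library left out 19 to 25 members rose. CTSD (chr11:1752755-1763927), the protease cathepsin D, had 478, 432 and 432 CPM with palbociclib, against 196, 167 and 212 CPM in controls, 2.33-fold higher (log2 fold change 1.22, SE 0.10, adjusted p = 1.11e-05). NEU1, a sialidase, had 66.7, 66.1 and 62.7 CPM with palbociclib, against 29.5, 29.7 and 29.4 CPM in controls (log2 fold change 1.14, SE 0.09), and GRN, progranulin, had 504, 434 and 433 CPM with palbociclib, against 236, 211 and 267 CPM in controls. Each treated library was above each control. MCOLN1, the calcium channel, had 2.71, 1.85 and 2.86 CPM with palbociclib, against 1.05, 0.818 and 0.789 CPM in controls (log2 fold change 1.47, SE 0.39), few counts in every library, and its call was lost without palbociclib 3 or control 2. SMPD1, the acid sphingomyelinase, rose by 0.99, LAMP1 by 0.66, SQSTM1, the autophagy receptor p62, by 0.68, and the regulators TFEB and TFE3 by 0.90 and 0.71. GUSB, a glucuronidase, fell by 0.48. MAP1LC3B, which encodes the autophagosome protein LC3B (0.06, adjusted p = 0.68), and ULK1, a kinase that starts autophagy (−0.10, adjusted p = 0.452), did not pass.

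Most tested genes of cholesterol and fatty acid synthesis were also higher, with 23 of 31 risen, 1 fallen and a median of 0.46, against 17.6% of all genes called higher. FASN, the fatty acid synthase, had 468, 434 and 479 CPM with palbociclib, against 239, 191 and 219 CPM in controls (log2 fold change 1.09, SE 0.09, adjusted p = 1.75e-05). NSDHL, a sterol enzyme, had 66.8, 58.5 and 63.4 CPM with palbociclib, against 28.1, 28.2 and 36.5 CPM in controls. The treated libraries of both were above all controls. SREBF1, a regulator of lipid synthesis, rose by 0.32 on the log2 scale. IDI1, an isoprenoid enzyme, stood under 3 CPM in all libraries (log2 fold change 1.34, SE 0.42), and its call was lost in 5 of the 6 left-out libraries. SREBF2 (−0.08, adjusted p = 0.584) did not pass, and FADS1, a desaturase, fell by 0.60.

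Of 27 tested genes of glycolysis 11 rose and 4 fell, with a median of 0.15, against 17.6% of all genes called higher and 17.4% called lower. SLC2A1, the glucose transporter GLUT1, had 789, 866 and 878 CPM with palbociclib, against 363, 377 and 380.2 CPM in controls (log2 fold change 1.18, SE 0.08, adjusted p = 3.94e-06), SLC16A3, a lactate exporter, rose by 0.85, and PDK1, which inhibits pyruvate dehydrogenase, fell by 0.96. The number that rose was 6 when all groups entered 1 fit and 7 without control 1. Of 46 nuclear genes of oxidative phosphorylation 12 rose and 5 fell, with a median of 0.04. The number that fell was 3 with all groups in 1 fit, 3 without palbociclib 1 or palbociclib 3, and 9 without control 3. Of 37 genes of ribosome assembly 16 were called lower and 2 higher (median −0.22), against the same shares. NPM1, nucleophosmin, had 705, 697 and 737 CPM with palbociclib, against 1231, 1329 and 1172 CPM in controls (log2 fold change −0.80). For the cytosolic ribosome 11 of 40 protein genes were called lower and 1 higher (median −0.20). RPL4 fell by 0.90 on the log2 scale and RPL5 by 0.78. The number that fell was 19 with all groups in 1 fit and 21 without control 3.

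Interferon-stimulated genes and the antigen presentation list rose in part. Of 27 tested interferon-stimulated genes 11 rose and 0 fell by edgeR or DESeq2, with a median of 0.37, against 17.6% of all genes called higher. Below 0, 2 members had an unadjusted p under 0.05, and 2 fell with all groups in 1 fit. ISG15, a ubiquitin-like protein, had 85.7, 85.7 and 79.2 CPM with palbociclib, against 34.1, 31.7 and 47.3 CPM in controls (log2 fold change 1.14, SE 0.14, adjusted p = 0.000124), DDX58, the RNA sensor RIG-I, had 13.9, 13.9 and 17.9 CPM with palbociclib, against 5.62, 6.44 and 8.52 CPM in controls, and STAT2, a transcription factor of the interferon response, rose by 0.94. All were above their controls in every treated library. Of 17 tested genes of MHC class I and its loading 7 rose and 0 fell by edgeR or DESeq2 (1 below 0 at an unadjusted p under 0.05), with a median of 0.28. With no count filter, with all groups in 1 fit or without palbociclib 1, 1 fell. B2M, the light chain of MHC class I, had 638, 666 and 561 CPM with palbociclib, against 352, 368 and 457 CPM in controls (log2 fold change 0.66, SE 0.11), the chaperone CALR rose by 0.74 and TAPBP, tapasin, by 0.58. HLA-E, a nonclassical heavy chain, passed the test (0.44, adjusted p = 0.0456) with overlapping libraries, since palbociclib 3 lay inside the control range, and the call was lost with all groups in 1 fit and in 4 of the left-out libraries.

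Several genes of intestinal differentiation were higher. Of 27 genes on that list 15 had enough counts to be tested, and of these 10 rose and 2 fell, with a median of 0.82, against 17.6% of all genes called higher and 17.4% called lower. TFF3, a trefoil peptide of goblet cells, had 315, 256 and 232 CPM with palbociclib, against 84.0, 75.4 and 95.9 CPM in controls (log2 fold change 1.65, SE 0.13, adjusted p = 7.6e-06), and FABP1, an enterocyte fatty acid carrier, had 10.1, 12.6 and 11.3 CPM with palbociclib, against 2.29, 3.99 and 2.37 CPM in controls. The treated libraries of both were above all controls. VIL1, the microvillus protein villin, rose by 0.56 and CDX2, an intestinal transcription factor, fell by 0.38 (adjusted p = 0.0232), a call lost without palbociclib 1, palbociclib 2 or control 3 and with all groups in 1 fit. CA9, a carbonic anhydrase known to respond to low oxygen, fell by 1.05. The keratins KRT8 (1.24) and KRT19 (1.22), filament proteins of simple epithelia, rose. Of 16 tested genes of the secreted and inflammatory list 8 rose and 2 fell, with a median of 0.65, and 0 or 1 fell in each left-out library. CXCL1, a chemokine, had 4.92, 6.77 and 8.0 CPM with palbociclib, against 0.286, 1.53 and 0.158 CPM in controls (log2 fold change 3.38, SE 0.54), PLAUR, the urokinase receptor, had 23.5, 17 and 18.7 CPM with palbociclib, against 6.38, 9.0 and 6.0 CPM in controls, and CCL20, another chemokine, fell by 1.36. The CCL20 call was lost with all groups in 1 fit and in 4 of the left-out libraries. CXCL1 and CCL20 rest on few counts, and 9 members of this list, IL6 and IL1B among them, had too few to be tested.

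Of 26 tested genes of MEK/ERK output 9 rose and 3 fell, with a median of 0.08, and 5 rose with all groups in 1 fit, where 17.6% of all genes were called higher and 17.4% lower in the fit of the 6 libraries. EMP1, an epithelial membrane protein, had 26.4, 27.5 and 30.7 CPM with palbociclib, against 9.91, 8.18 and 6.47 CPM in controls (log2 fold change 1.79, SE 0.16, adjusted p = 2.04e-05), EREG, an EGFR ligand, had 7.95, 7.98 and 7.27 CPM with palbociclib, against 3.52, 4.4 and 2.76 CPM in controls, and DUSP6, the phosphatase that feeds back on ERK, rose by 0.39. MYC fell by 0.43 (adjusted p = 0.00315) and FOSL1 (0.12, adjusted p = 0.507) did not pass. Of 19 genes of WNT signalling and stem cells 3 rose and 4 fell, with SP5, a WNT target, lowest (−0.82). These counts are near the shares over all genes, and with all groups in 1 fit 1 rose and 1 fell. Of 24 genes of the BCL2 family and cell death 9 rose and 3 fell, with a median of 0.28. BBC3, which encodes the death activator PUMA, fell by 0.89. BCL2, the survival factor, had 0.984, 1.05 and 0.653 CPM with palbociclib, against 3.81, 3.58 and 4.10 CPM in controls (log2 fold change −2.09, SE 0.34), BOK, a death effector, had 5.58, 2.74 and 5.72 CPM with palbociclib, against 0.572, 0.716 and 1.18 CPM in controls, and BCL2L1, which encodes BCL-XL, rose by 0.65. Of 25 genes that slow growth 8 rose and 6 fell, among them MXD4, a MYC antagonist (1.20), and INSR, the insulin receptor (−1.16).

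**Figure D3:**
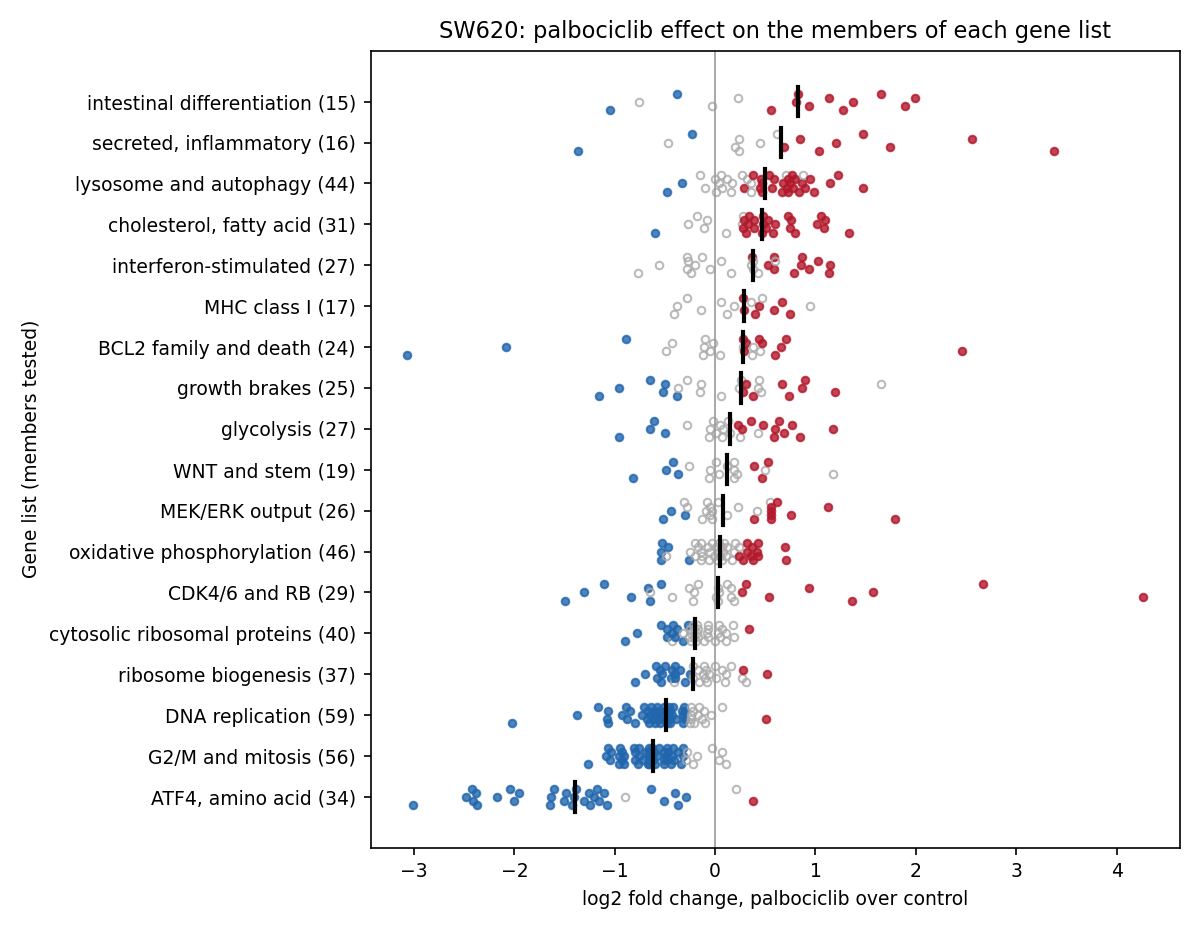
Log2 fold change of palbociclib over control for the tested members of 18 gene lists, with filled points for an adjusted p under 0.05 (red higher, blue lower), open points for members that did not pass, and a black bar at each list's median. The medians run from −1.40 for the ATF4 list to 0.82 for intestinal differentiation, and CDK4/6 and RB members lie on both sides of 0.

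Palbociclib was also given to SW48, and the difference between the lines was tested directly. Of 14098 genes tested 2052 had a higher effect in SW620 than in SW48 (14.6%) and 1574 a lower one (11.2%), so that 25.7% differed. A higher effect is a higher log2 fold change, so a gene that fell less in SW620 than in SW48 counts as higher. A gene that fell further in SW620 counts as lower. Of the 11699 genes tested in both lines' own fits, 2033 rose in SW620 and 3334 in SW48, and 2118 fell in SW620 and 3547 in SW48. Of these 1214 rose in both, 59.7% of those that rose in SW620 and 36.4% of those that rose in SW48. A further 1331 fell in both, 62.8% of those that fell in SW620 and 37.5% of those in SW48. Opposite calls were fewer. Of the genes that rose in SW620 228 fell in SW48 (11.2%), and of those that fell in SW620 163 rose in SW48 (7.70%).

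The effect on CCND1 and CCND2 differed between the lines. CCND1 rose in SW620 (log2 fold change 1.57) and stood at 634, 640.5 and 618 CPM with palbociclib in SW48, against 751, 778 and 820.2 CPM in SW48 controls (log2 fold change −0.30). The difference of the effects was 1.88 (SE 0.08, adjusted p = 3.47e-09). CCND2 had 338, 358 and 354 CPM with palbociclib in SW48, against 344, 304 and 365 CPM in SW48 controls, groups that overlapped, and its effects differed by 2.62 (adjusted p = 3.47e-09). CCND3 rose in both lines (0.94 in SW620, 1.04 in SW48), and the difference was −0.09 (SE 0.15, adjusted p = 0.703). CDK4 did not pass in SW620 and had a log2 fold change of −0.60 in SW48 (difference 0.76, adjusted p = 9.91e-05). CDKN1C was lower in SW620 (−1.31) and higher in SW48 (0.42), a difference of −1.71 (adjusted p = 9.54e-06). RBL1 and E2F2 fell in both lines, and their differences did not pass (−0.63, adjusted p = 0.0731, and −0.16, adjusted p = 0.628).

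MEK/ERK output had the widest gap between the lines' medians among the 18 lists plotted. In SW48 6 members rose and 17 fell, with a median of −0.67, where 28.3% of all genes rose, 29.2% fell and 57.5% were called in all. Of 26 members tested for the difference 17 had a higher effect in SW620 and 2 a lower one, against 14.6% of all genes with a higher one. EREG stood at 21.3, 22.5 and 26.4 CPM with palbociclib in SW48, against 114, 148 and 145 CPM in SW48 controls (log2 fold change −2.54), and the effects differed by 3.69 (SE 0.22, adjusted p = 2.26e-08). DUSP6 stood at 225, 213 and 215 CPM with palbociclib in SW48, against 361, 357 and 392 CPM in SW48 controls (difference 1.16, adjusted p = 4.49e-07), and ETV5, an ETS factor, differed by 0.93. These genes were lower with palbociclib in SW48, while in SW620 EREG and DUSP6 rose and ETV5 did not pass. Members of the ATF4 list fell in both lines, 31 of 34 in SW620 and 31 of 32 in SW48. The medians were −1.40 in SW620 and −2.09 in SW48, and 27 members had a higher effect in SW620 and 1 a lower one. CHAC1 had a log2 fold change of −2.04 in SW620 and −4.24 in SW48. PHGDH was the member with a lower effect, here a more negative change, in SW620 (difference −0.64, adjusted p = 0.00141).

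Of 40 cytosolic ribosomal protein genes 18 had a lower effect in SW620, where 14.6% of all genes had a higher effect and 11.2% a lower one, and RPL5 differed by −0.72 (adjusted p = 0.000699). Of 37 genes of ribosome assembly 19 had a higher effect in SW620 and 2 a lower one. Of 59 replication genes 13 had a higher effect in SW620 and 7 a lower one, and of 56 mitotic genes 4 a higher and 13 a lower one. MKI67 did not pass the test of the difference (−0.28, SE 0.13, adjusted p = 0.139). Of 44 lysosomal genes 7 had a higher effect in SW620 and 13 a lower one, among them SMPD1 (−1.26) and NPC2, a cholesterol carrier (−0.99).

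**Figure D4:**
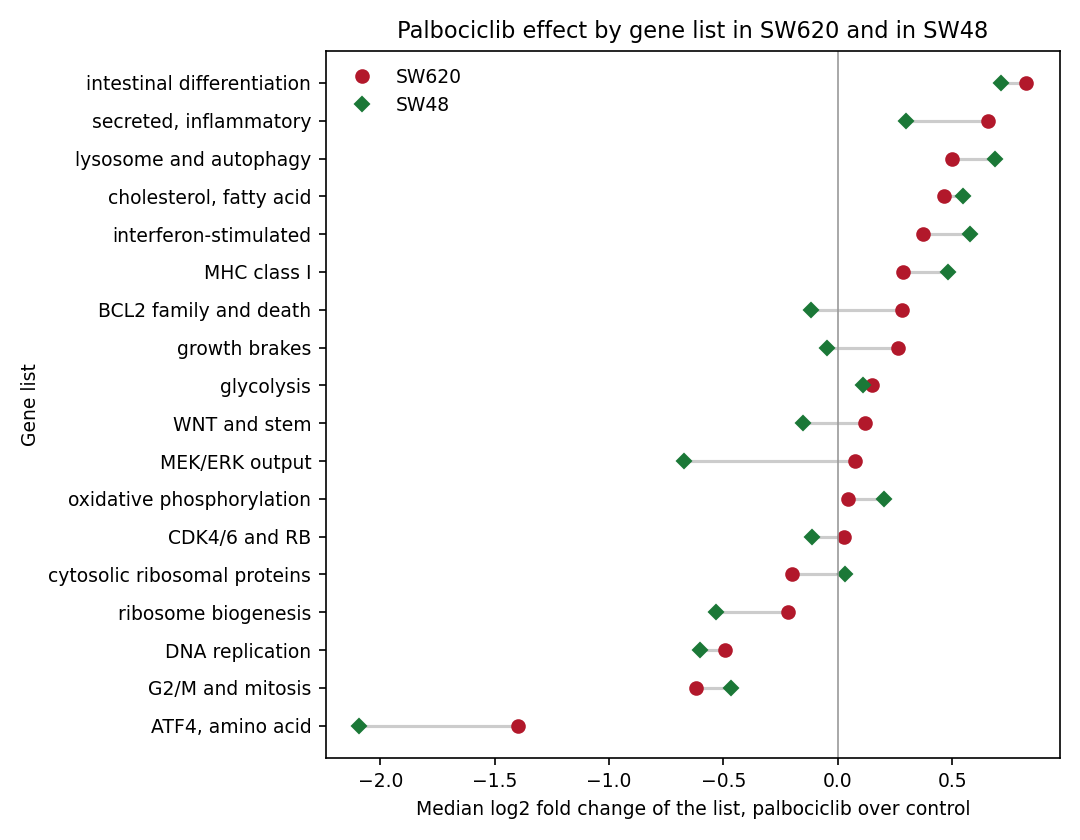
Median log2 fold change of palbociclib over control for 18 gene lists in SW620 (red circles) and SW48 (green diamonds), joined by grey lines. The medians lie close for DNA replication and mitosis and far apart for MEK/ERK output (0.08 in SW620, −0.67 in SW48) and the ATF4 list (−1.40 in SW620, −2.09 in SW48).

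The direct contrast of palbociclib with trametinib in SW620 called 2212 of 13232 genes higher (16.7%) and 2109 lower (15.9%), 32.7% in all. Cell-cycle genes were lower with palbociclib: 49 of 59 replication genes and 53 of 56 mitotic genes were lower. The medians were −0.65 for replication and −0.91 for mitosis, against −0.49 and −0.62 when palbociclib was compared with control. The direct contrast does not say which drug's libraries moved from control. MKI67 had 123, 146 and 158 CPM with palbociclib, against 276, 312 and 413 CPM with trametinib (log2 fold change −1.23, SE 0.15, adjusted p = 0.000257), and NUF2 had 25.5, 29.0 and 26.2 CPM with palbociclib, against 76.5, 89.4 and 85.6 CPM with trametinib. Neither overlapped. All 3 D-type cyclins were higher with palbociclib, CCND1 at 819, 810.3 and 830.4 CPM with palbociclib, against 282, 208 and 194 CPM with trametinib (1.85), CCND2 by 2.34 and CCND3 by 1.08. RBL1 (−1.53), CDKN1B (−0.94) and E2F1 (−0.47, adjusted p = 0.00917) were lower.

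Of 44 lysosomal genes 22 were higher and 2 lower with palbociclib than with trametinib, against 16.7% of all genes called higher and 15.9% lower. Of 26 genes of MEK/ERK output 10 were higher and 1 lower. EMP1 had 26.7, 27.6 and 31.0 CPM with palbociclib, against 5.54, 2.33 and 2.28 CPM with trametinib (log2 fold change 3.05), and DUSP6 had 376, 383 and 385 CPM with palbociclib, against 303, 263 and 154 CPM with trametinib (0.67, adjusted p = 0.0235). MYC (0.43, adjusted p = 0.114) and ETV5 (−0.09, adjusted p = 0.624) did not pass. Among the genes named by the same limits, the highest after CCDC80, given below, were ITGB7 (3.26), EMP1 and NGFR (3.05). The crosslinking enzyme TGM2 (2.91) and the elongation factor EEF1A2 (2.36) came next. The lowest after EIF3C, also given below, were the calcium channel ITPR2 (−2.80) and the linker histone HIST1H1D (−2.64). They were followed by G0S2 (−2.23), NEURL1B, an E3 ligase (−2.09), and HUNK, a kinase (−2.04).

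The trametinib libraries differed among themselves, in genes of the ATF4 list and in others. ITPR2 had 115, 115 and 136 CPM with palbociclib, against 355, 702 and 1502 CPM with trametinib. NEURL1B had 12.1, 5.51 and 8.91 CPM with palbociclib, against 19.7, 38.5 and 54.7 CPM with trametinib. ASNS had 33.9, 39.4 and 37.3 CPM with palbociclib, against 314, 149 and 21.3 CPM with trametinib, so the groups overlapped although the contrast passed (−2.13, adjusted p = 0.0298). TRIB3 had 52.8, 49.3 and 50.9 CPM with palbociclib, against 249, 139 and 39.6 CPM with trametinib, with the same order of libraries. CCDC80, an extracellular matrix gene, was the highest by the limits (6.68) through palbociclib 1 alone, with 227, 1.46 and 0.990 CPM with palbociclib, against 0.963, 0.582 and 0.639 CPM with trametinib, and without that library its log2 fold change was 0.74 (adjusted p = 0.366). EIF3C, a translation initiation factor with a near-identical copy in the genome, had 1.49, 3.0 and 4.78 CPM with palbociclib, against 135, 127 and 101 CPM with trametinib. The difference is uncertain, since control 1 was also at the palbociclib level, as given further below. Reads can be split between the copies, and whether this has a part in the difference was not tested.

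**Figure D5:**
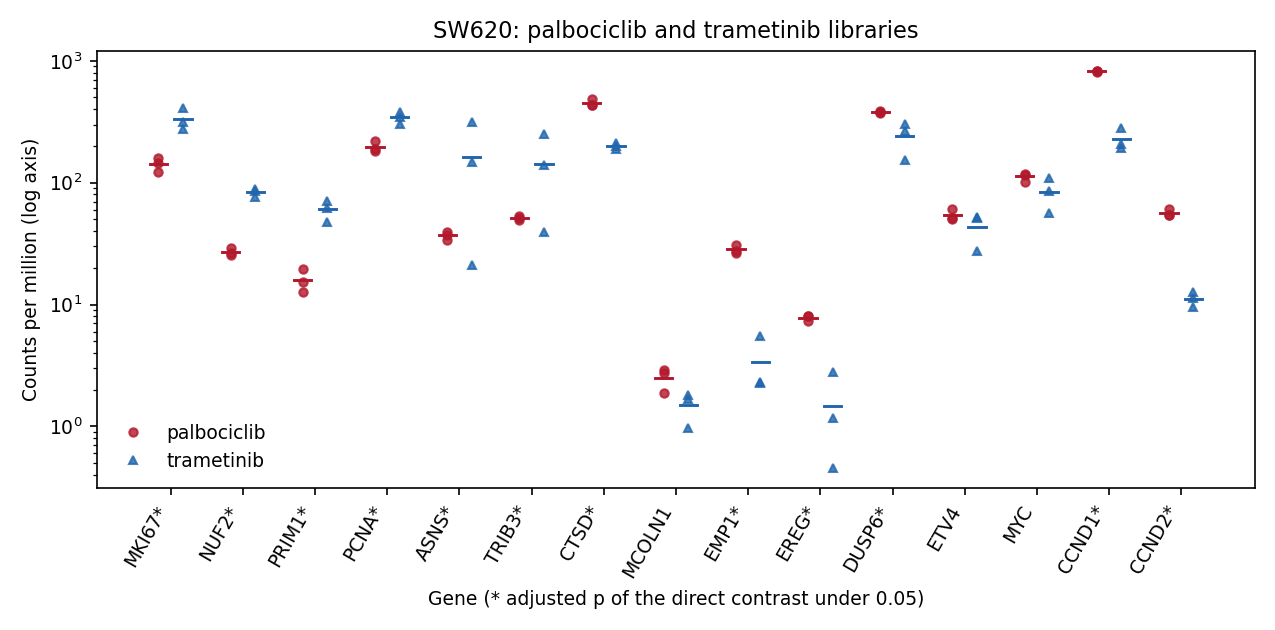
CPM on a log axis for 15 genes in each SW620 library with palbociclib (red circles) or trametinib (blue triangles), with a line at each group's mean and a star for an adjusted p of the direct contrast under 0.05. MKI67, NUF2, PRIM1 and PCNA lie lower with palbociclib, CCND1 and CCND2 higher, and the trametinib libraries of ASNS spread between 21.3 and 314 CPM.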

How the data were processed

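Per the submitters' processing notes, reads were trimmed with Trimmomatic, aligned with STAR to hg38 and counted with featureCounts; versions, annotation and strand setting were not given there. The authors' deposited table holds counts, whole reads per gene symbol with no normalisation. A second deposited table repeats 12 libraries of the series and was not used. All 6 libraries were grouped by their labels; the SW48 and trametinib groups are of the same set.

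Genes were kept by filterByExpr (minimum count 10, minimum total 15), which left 13068 of 33119, scaled by TMM and tested two-sided with the quasi-likelihood test of edgeR 4.0.16 in R 4.3.3, on the groups compared alone, with Benjamini-Hochberg adjustment over all genes tested (threshold 0.05). Levels are CPM with TMM, scaled within each comparison; levels of marker lists are plain CPM. The difference between lines is the difference of drug effects. The fits were tested on simulated data. PCR copies cannot be told from molecules.

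The named genes are the 12 highest and 12 lowest called genes averaging at least 4 on the log2 CPM scale with no overlap of groups, up to 5 called members of each of 22 lists, and the CDK4/6 and RB list, with 6 highest and 6 lowest for the other contrasts; further members were named after their values were seen. Of the genes this rule names for the difference between lines, FAM129A, DCLK1, PEG10, PCDH19 and MYH7B, with too few counts in 1 line's own fit, were left out after seeing the data, and 1 of the lists and some genes that meet the rule are not reported here. The members and lists were chosen with earlier results of these data known, and the TGATGNAA motif was added after seeing the data. List symbols absent from the table are TIGAR and CXCL8. Also tried were other size factors (RLE), no count filter, DESeq2 1.42.0, a fit of all 14 groups of the set, a block on the replicate number, robust dispersion, a 2-fold limit and each library left out. Promoter sequences and positions are from RefSeq, GRCh38.p14. Figures were drawn with matplotlib 3.10.9.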

Additional observations from a re-analysis of the deposited data

Results flagged for a closer look

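The palbociclib effect differed between SW620 and SW48, by the edgeR test of the difference itself, for 14 of 29 genes of the CDK4/6 and RB list, against 25.7% of all genes tested. Differences are SW620 minus SW48 on the log2 scale. The effect was higher in SW620 for CCND1 (1.88), CCND2 (2.62), CCNE1 (1.01), CDC25A (0.87), CDK4 (0.76), CDKN2B (0.73), E2F3 (0.73), RB1 (0.71) and E2F6 (0.67). It was higher for CDKN1A (3.66, SE 1.07), where SW620 controls were under 1 CPM and palbociclib 1 stood far above the other treated libraries. The effect was lower in SW620 for CDKN1C (−1.71), CDKN2C (−1.27), RBL2 (−0.45) and CDKN1B (−0.45).

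A further 6 genes had large differences within the limits for named genes. PRSS22, a serine protease, had 7.66, 4.80 and 4.26 CPM with palbociclib in SW620, against 0.408, 0.549 and 0.922 CPM in SW620 controls, and 29.5, 29.4 and 32.3 CPM with palbociclib in SW48, against 89.1, 141 and 107 CPM in SW48 controls (difference 4.97, adjusted p = 4.87e-07). It was higher with the drug in SW620 and lower in SW48. HKDC1, a hexokinase relative, fell in both lines and further in SW48 (3.84). NUDT1, which removes oxidised nucleotides, rose in SW48 and did not pass in SW620 (difference −3.0). AKR1C3, an aldo-keto reductase, rose in both lines and further in SW48 (−2.89). VIL1 (−3.43) and CALHM3, a calcium channel relative (−3.91), also rose in both. AKR1C3, VIL1 and CALHM3 had under 1 CPM in every SW48 control, and PRSS22 in every SW620 control, so the fitted differences of these 4 depend on few counts. The other genes were also low in 1 group. HKDC1 had 2.39, 1.36 and 1.91 CPM with palbociclib in SW48, and NUDT1 had 2.48, 1.20 and 2.75 CPM in SW48 controls.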

How the results depend on the processing

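Of the 12 highest, 12 lowest and 29 CDK4/6 and RB genes (52 in all, CCND2 being in both), 590 of 624 values under 12 alternatives kept their direction and side of the threshold; 20 calls were lost, 4 gained and 10 signs turned. All turned signs were of genes that did not pass: CDK6 with all groups in 1 fit (−0.0093), and, as ranges over left-out libraries, CDK6 (−0.068 to 0.053, negative without palbociclib 3 or control 1), RB1 (−0.096 to 0.26) and CCNE2 (−0.10 to 0.18), both negative without palbociclib 3, E2F1 (−0.31 to 0.0054, positive without control 3), E2F5 (−0.72 to 0.22, positive without palbociclib 2), and without control 2 CDK2 (−0.066 to 0.10) and CDKN2A (−0.046 to 0.090), there negative, and CDKN2D (−0.39 to 0.083), there positive. The cause was not tested. Of 86 genes named for the other lists, 975 of 1032 values kept their call and 57 lost it. With the 2-fold limit 534 genes were higher and 301 lower, and 6 replication, 5 mitotic, 3 lysosomal and 5 cholesterol and fatty acid genes passed; between lines 507 were higher and 478 lower, and against trametinib 526 and 405. A smaller count is what that limit gives by construction.

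With 1 library left out, genes higher ranged from 1658 to 2359 and lower from 1678 to 2377, replication genes lower from 38 to 45, mitotic from 44 to 47, ATF4 from 29 to 32, lysosomal genes higher from 19 to 25 and cholesterol and fatty acid genes from 18 to 20. Between lines the ranges were 1542 to 2037 higher and 1302 to 1576 lower, and against trametinib 1603 to 2201 and 1499 to 2073. DESeq2 called 2129 genes higher and 2162 lower.

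The replicate number as a block called 2044 genes higher and 2052 lower, and the pairing had no support in the values, since same-numbered libraries had deviations correlated at 0.01, −0.01 and −0.06. No palbociclib library correlated best with the control of its own number, and the numbers were taken not to pair the samples. With the block TFDP2 alone of the 52 genes lost its call, and ANPEP, BST2, CCL20, HLA-E and IDI1 of the 86.

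Of the genes named for the difference between lines 11 of 216 values lost the call, all of PEG10 and PCDH19, and against trametinib 4 of 143, all of CCDC80. Depth limits genes under about 1 CPM, such as the CDKN1A controls, to a few counts per library. The standard errors cover the spread among these libraries, which may be technical.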

Other observations

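Gene families read by symbol, chosen after values were seen, gave the following counts, where 17.6% of all genes were called higher and 17.4% lower. Of 18 tested integrin and integrin-associated genes 11 rose, with a median log2 fold change of 0.77. ITGB4, a hemidesmosome subunit, had 204, 207 and 223 CPM with palbociclib, against 130.3, 114 and 126 CPM in controls (log2 fold change 0.78, SE 0.08, adjusted p = 6.22e-05), ITGA3, a laminin receptor subunit, rose by 1.78 and ITGB6, an epithelial subunit, by 1.44. Of 11 tested collagens 7 rose and 1 fell, COL4A2, a basement membrane chain, by 1.78. Palbociclib 1 had the highest COL6A1 and alone held COL1A1, which did not pass, at 117 CPM (3.22 and 3.10 CPM in the other treated libraries, 3.71 to 6.38 CPM in controls), and its part was not tested. Of 13 S100 genes 8 rose and 1 fell. S100A4, known from cell motility, had 4121, 3801 and 3560.0 CPM with palbociclib, against 1458, 1312 and 1670.3 CPM in controls, and S100P had 159, 149 and 126 CPM with palbociclib, against 305, 295 and 263 CPM in controls. Of 19 tested genes with V-ATPase symbols, which encode the pump that acidifies lysosomes, 12 rose, 3 of which (ATP6V0D1, ATP6V1H and ATP6V1A) are also on the lysosome list. Of 17 cytoplasmic aminoacyl-tRNA synthetases 12 fell and 1 rose, led by MARS (−1.94). Of 77 mitochondrial ribosomal protein genes 27 fell and 8 rose.

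Histone genes, most of whose transcripts lack a poly(A) tail and are read in part by this assay, moved both ways. Of 22 tested 9 fell and 5 rose, against 17.4% of all genes called lower and 17.6% called higher. HIST1H4C had 1191, 1256 and 1396 CPM with palbociclib, against 3382, 3721 and 3688 CPM in controls (log2 fold change −1.49, SE 0.10, adjusted p = 2.7e-06), HIST1H1C, a linker histone, fell by 1.29, and HIST1H2BK rose to 208, 216 and 208 CPM with palbociclib, against 64.7, 64.7 and 66.0 CPM in controls. The groups did not overlap in these genes. EIF3C stood at 1.48, 2.98 and 4.74 CPM with palbociclib, against 1.91, 176 and 235 CPM in controls, so control 1 was at the treated level.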
